A study of Arabidopsis thaliana with 11 samples.

Results

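JAG, NUB and SEU are 3 regulators of organ growth and floral patterning, and their transcripts were measured in inflorescences labelled as NGATHA mutant or knockdown and as wild type. They were found through the platform annotation as the probe sets that list each of these genes alone. Each gene had 1 probe set, so 3 genes were followed out of 13286 genes with a probe set of their own in the annotation. The study used 11 Affymetrix ATH1 arrays, on which a set of short probes reads each transcript, for inflorescence RNA of Arabidopsis thaliana, ecotype Ler. All plants were sampled 30 days after sowing, and the oldest flowers in the tissue were at stage 12. The group called ngaquad (2 arrays) came from plants with the mutant alleles nga1-1, nga2-1, nga3-1 and nga4-1. The group called miR-NGA (2 arrays) came from plants in which the viral 35S promoter drives an artificial microRNA against the NGA1 to NGA4 transcripts. The group called wt (7 arrays) is labelled wild type, and the labels add a note of long days for 3 of its arrays and state no day length for the other arrays. The series design text pools ngaquad and miR-NGA because of their shared phenotype, and the pooled 4 arrays are called nga-deficient here. The labels do not say how many plants a sample holds or whether replicates were grown apart. The p-values therefore reflect the spread among these samples alone, and that spread may be technical.

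JAG (JAGGED, AT1G68480) encodes a C2H2 zinc-finger transcription factor that promotes the growth of lateral organs, above all petals. NUB (NUBBIN, also called JAGGED-LIKE, AT1G13400) encodes its closest relative, which acts redundantly with JAG in the growth of stamens and carpels. SEU (SEUSS, AT1G43850) encodes a glutamine-rich co-regulator that works with the co-repressor LEUNIG to keep AGAMOUS off in the outer floral organs and also takes part in carpel margin and ovule development. The NGATHA genes encode B3-domain transcription factors that direct development of the style and stigma at the top of the carpel. The comparison asks whether these organ growth genes were at another level in the plants labelled as NGATHA mutant or knockdown.

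Some arrays stood apart from their groups before any of the 3 genes was considered. NGA1 measured 4.88 to 6.95 on the nga-deficient arrays on the log2 scale, 5.60 to 5.99 on the arrays labelled wt replicates 1 to 4, and 10.50 or more on those labelled wt replicates 5 to 7. The NGA1 signal of wt replicates 1 to 4 thus lay within the nga-deficient range, unlike that of wt replicates 5 to 7, and the labels do not say why. NGA3 and NGA4 fell in nga-deficient inflorescences, by 1.33 and 1.49 on the log2 scale (limma adjusted p = 0.000592 and 0.000253). For both genes every wt array, replicates 1 to 4 included, lay above every nga-deficient array. NGA1 and NGA2 did not pass in the pooled comparison (-2.03 and -0.28, adjusted p = 0.328 and 0.302). NGA2 fell in ngaquad by 0.62 (adjusted p = 0.0201), and its difference was 0.06 in miR-NGA (adjusted p = 0.844), although the label names it among the microRNA's targets. Actin control probes of the 3-prime end exceeded those of the 5-prime end by 2.05 to 2.11 on ngaquad replicate 1 and wt replicates 1 and 2, and by 1.09 to 1.31 on the other arrays. The main results are also given without wt replicates 5 to 7 and without the 3 arrays with a raised actin difference. No fit with wt replicates 5 to 7 as the only controls was run.

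The genes were read at different positions of the signal range, from a dim NUB to a bright SEU. A value is the log2 signal of the authors' GC-RMA procedure, and probe sets differ in brightness for reasons of their sequence, so levels are compared between samples and not between genes. JAG ranked between the 37.7 and 43.4 percentile of all probe sets on the nga-deficient arrays and between the 27.9 and 37.9 percentile on the wt arrays. NUB ranked between the 19.3 and 30.3 percentile on the nga-deficient arrays and between the 27.5 and 34.4 percentile on the wt arrays. SEU ranked between the 76.9 and 80.3 percentile on the nga-deficient arrays and between the 79.1 and 88.2 percentile on the wt arrays. NUB thus lay close to the low end, where GC-RMA compresses differences. A probe set was tested when it reached 4 on the log2 scale on at least 4 arrays, which all 3 genes did. NUB did so on 0 of 2 ngaquad arrays, 2 of 2 miR-NGA arrays and 7 of 7 wt arrays, and so was kept largely through the group in which it was highest.

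JAG was brighter on the nga-deficient arrays. It measured 5.13 and 5.08 in ngaquad and 5.36 and 5.62 in miR-NGA, against a lowest of 4.43, a median of 4.78 and a highest of 5.09 on the 7 wt arrays. Of the 4 nga-deficient arrays 3 lay above every wt array, and ngaquad replicate 2 lay below wt replicates 4 and 7, an overlap of 0.013 on the log2 scale. JAG averaged 5.30 ± 0.25 (SD, n = 4) in nga-deficient and 4.80 ± 0.24 (SD, n = 7) in wt inflorescences. The difference was 0.50 on the log2 scale (SE 0.15, 95% interval 0.18 to 0.82), a 1.41-fold higher mean that did not pass the limma test over all probe sets (adjusted p = 0.0748). In whole inflorescences, a change in the number of cells that express a gene and a change in its RNA per cell cannot be told apart.

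The direction for JAG did not turn in any fit that was run. Without wt replicates 5 to 7 the JAG difference was 0.57 (limma adjusted p = 0.113), and without the 3 arrays with a raised actin difference it was 0.48 (adjusted p = 0.108). An exact two-sided permutation of the 11 sample labels gave p = 0.0152 for JAG as a single gene, where 0.00303 is the smallest value the 330 possible labelings can give. JAG, NUB and SEU were chosen with their directions in these data known, so such single-gene p-values, here and below, describe the arrangement of the arrays and are no independent support. With array weights, which give less influence to arrays that deviate, the difference of 0.53 passed (limma adjusted p = 0.0103). Many more probe sets passed with these weights, 2977 of 17910 against 792 without them, so little is read from that pass.

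NUB was dimmer on the nga-deficient arrays. It measured 3.89 and 3.96 in ngaquad and 4.02 and 4.39 in miR-NGA, against a lowest of 4.21, a median of 4.49 and a highest of 4.84 on the 7 wt arrays. The ngaquad arrays and miR-NGA replicate 1 lay below every wt array, while miR-NGA replicate 2 lay above wt replicate 6. NUB averaged 4.06 ± 0.22 (SD, n = 4) in nga-deficient and 4.56 ± 0.23 (SD, n = 7) in wt inflorescences. The difference was -0.50 on the log2 scale (SE 0.14, 95% interval -0.80 to -0.19), a 1.41-fold lower mean that also missed the threshold (limma adjusted p = 0.0649).

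Whether NUB passed depended on single arrays. Without wt replicate 6 the NUB difference was -0.56 (limma adjusted p = 0.0443), and without miR-NGA replicate 2 it was -0.61 (adjusted p = 0.0352). These are the lowest wt and the highest nga-deficient array, so the removal of either had to widen the difference. Of the 11 fits with 1 array left out only these 2 passed, and the adjusted p ran up to 0.176. Without the 3 arrays with a raised actin difference the NUB difference was -0.33 (adjusted p = 0.177), a shift of over 1.5 times. Without wt replicates 5 to 7 it was -0.59 (adjusted p = 0.0712). Wt replicates 1 and 2, which carry the high actin difference, had the highest NUB values, 4.84 and 4.82, and ngaquad replicate 1, the third array with it, had the lowest of all 11 arrays, 3.89. The part of the actin difference in the NUB result was not tested. The exact two-sided permutation test of NUB as a single gene gave p = 0.0121.

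SEU was also dimmer on the nga-deficient arrays. It measured 7.988 and 8.003 in ngaquad and 8.10 and 8.26 in miR-NGA, against a lowest of 8.17, a median of 8.50 and a highest of 8.88 on the 7 wt arrays. The ngaquad arrays and miR-NGA replicate 1 lay below every wt array, and miR-NGA replicate 2 lay above wt replicate 5. SEU averaged 8.09 ± 0.12 (SD, n = 4) in nga-deficient and 8.52 ± 0.28 (SD, n = 7) in wt inflorescences. The difference of -0.43 on the log2 scale (SE 0.15, 95% interval -0.75 to -0.12), a 1.35-fold lower mean, did not pass (limma adjusted p = 0.105).

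As with NUB, the highest SEU values were those of wt replicates 1 and 2, at 8.88 and 8.78, followed by wt replicate 7 at 8.72. Ngaquad replicate 1, which also has a raised actin difference, had the lowest SEU value of all 11 arrays, 7.988, and the part of the actin difference in the SEU result was not tested. Without the 3 arrays with a raised actin difference the SEU difference was -0.27 (limma adjusted p = 0.246), a shift of over 1.5 times. Without wt replicates 5 to 7 it was -0.52 (adjusted p = 0.0983). The exact two-sided permutation test of SEU as a single gene gave p = 0.0182.

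**Figure D1:**
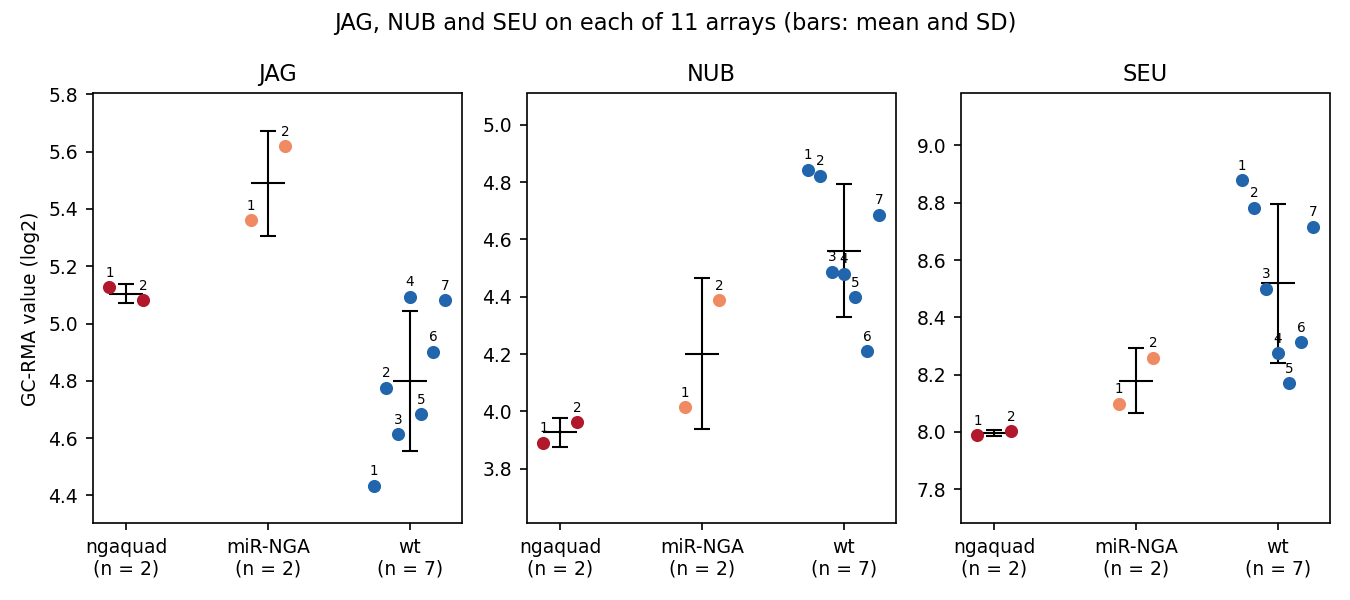
GC-RMA values on the log2 scale (vertical axis, each panel spanning 1.5 log2 units) of JAG, NUB and SEU on the arrays of ngaquad, miR-NGA and wt inflorescences; points are arrays with their replicate number, bars the group mean and SD. Of the 4 nga-deficient arrays 3 lie above all wt arrays for JAG and 3 lie below all wt arrays for NUB and for SEU, and in each panel 1 array overlaps the wt range.

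None of the 3 genes passed the adjusted threshold of 0.05 in the limma comparison of nga-deficient with wt arrays, in which 4.42% of the 17910 tested probe sets passed. At an unadjusted limma p under 0.05 all 3 were counted, against 22.4% of all tested probe sets, but the genes were chosen with earlier results of these data known, so nothing is read from that count. Groups that did not overlap were seen for 0 of the 3 genes and for 7.38% of tested probe sets. The largest unadjusted p that still passed was 0.00221, and those of JAG, NUB and SEU were 0.00534, 0.00392 and 0.0110 in the limma fit across all probe sets. By size, 5.67% of tested probe sets were higher by at least as much as JAG. For falls, 5.66% were lower by at least as much as NUB and 7.38% by at least as much as SEU. The spread of the 3 genes between arrays of a group was ordinary: 0.22 for JAG, 0.22 for NUB and 0.24 for SEU (residual SD on the log2 scale), against a median of 0.23 over tested probe sets.

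The genotypes were then set separately against wt in 1 fit of 3 groups. In ngaquad NUB was 1.55-fold lower (log2 difference -0.63, SE 0.18, limma adjusted p = 0.0652) and SEU 1.44-fold lower (-0.52, SE 0.19, adjusted p = 0.134). The JAG mean in ngaquad was 1.24-fold higher (0.31, SE 0.18, adjusted p = 0.353). Both ngaquad arrays lay below all wt arrays for NUB and for SEU. Of all tested probe sets 10.7% had both ngaquad arrays below all wt arrays, and 4.17% passed the adjusted threshold in this comparison. Without wt replicate 6, the wt array of lowest NUB, the NUB difference in ngaquad was -0.69 and passed (limma adjusted p = 0.0477). It passed also after quantile normalization (-0.65, adjusted p = 0.0431). Without wt replicates 5 to 7 it was -0.73 (adjusted p = 0.0720), and without the 3 arrays with a raised actin difference, which leaves ngaquad replicate 2 alone and assumes that it varies like the other groups, it was -0.49 (adjusted p = 0.261).

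In miR-NGA the order of sizes was another. The JAG mean was 1.61-fold higher (log2 difference 0.69, SE 0.18, limma adjusted p = 0.112), and both miR-NGA arrays lay above all wt arrays, as did those of 9.98% of tested probe sets. The NUB mean was 1.28-fold lower (-0.36, SE 0.18, adjusted p = 0.428) and SEU 1.27-fold lower (-0.34, SE 0.19, adjusted p = 0.478). The NUB difference was -0.17 without miR-NGA replicate 1 and -0.55 without miR-NGA replicate 2, so it moved by over 1.5 times with either array. Of all tested probe sets 0.932% passed in this comparison, and an unadjusted p of at most 0.000459 was needed, against 0.00207 for JAG in the same limma fit. With array weights the JAG difference of 0.67 passed (limma adjusted p = 0.00810), but so did 1650 of 17910 probe sets, against 167 without weights. Without wt replicates 5 to 7 the miR-NGA difference of JAG was 0.76 (adjusted p = 0.164), and without the 3 arrays with a raised actin difference it was 0.61 (adjusted p = 0.0908).

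The order of group means was miR-NGA, ngaquad and wt for JAG from high to low, and wt, miR-NGA and ngaquad for NUB and SEU. The direct test of ngaquad against miR-NGA gave a log2 difference of -0.39 for JAG (95% interval -0.86 to 0.09, limma adjusted p = 0.754). For NUB it was -0.28 (interval -0.76 to 0.21, adjusted p = 0.832) and for SEU -0.18 (interval -0.70 to 0.33, adjusted p = 0.890). With 1 miR-NGA array left out, the differences ran from -0.51 to -0.26 for JAG, from -0.46 to -0.09 for NUB and from -0.26 to -0.10 for SEU. Of all tested probe sets 0.134% passed this comparison. These intervals include both 0 and differences as large as those from wt, so the test shows neither that the genotypes differ in the 3 genes nor that they are alike. Both genotypes were compared with the same 7 wt arrays, so their separate differences from wt are not independent of each other.

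**Figure D2:**
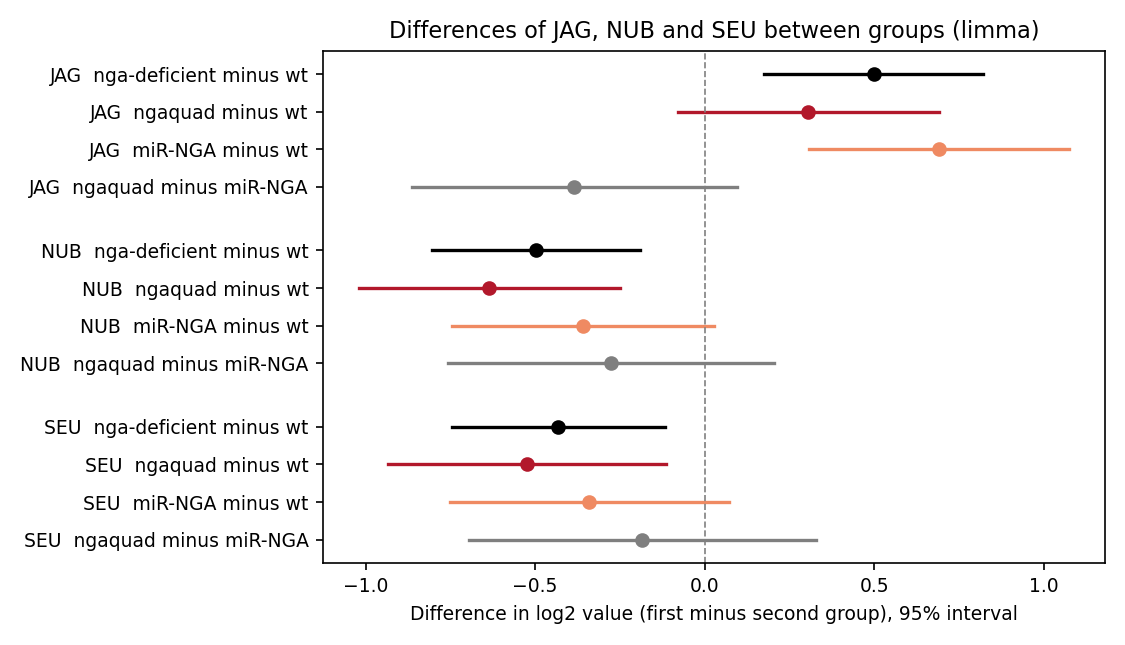
Differences in log2 value (horizontal axis) of JAG, NUB and SEU for nga-deficient minus wt, ngaquad minus wt, miR-NGA minus wt and ngaquad minus miR-NGA arrays; points are limma estimates and lines unadjusted 95% intervals. The JAG difference is the widest for miR-NGA, at 0.69, and those of NUB and SEU for ngaquad, at -0.63 and -0.52.

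The group means of JAG and its relative NUB lay on opposite sides of the wt means, though neither difference passed the test and each gene's arrays overlapped wt. The JAG value minus the NUB value within an array was 1.24 and 1.12 in ngaquad and 1.34 and 1.23 in miR-NGA, on the log2 scale. On the 7 wt arrays it ran from -0.41 to 0.69. The groups did not overlap in this difference, which averaged 1.23 ± 0.09 (SD, n = 4) in nga-deficient and 0.24 ± 0.38 (SD, n = 7) in wt inflorescences. Its absolute size also holds the unequal brightness of the probe sets, so it only describes a relative shift between the groups. It combines differences already seen to be opposite, in genes chosen with their directions known, which tends to widen the gap. How many other pairs of probe sets would not overlap was not counted. Nothing is therefore read from the lack of overlap, and no test is given for it.

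The wt arrays also differed among themselves. JAG spanned 0.66, NUB 0.63 and SEU 0.71 on the log2 scale within wt, each more than the difference of group means. A range over 7 arrays is not the same measure as a difference of means, and the spread of the 3 genes was ordinary among tested probe sets. On the wt arrays of low and of high NGA1 signal JAG averaged 4.73 (replicates 1 to 4) and 4.89 (replicates 5 to 7). NUB averaged 4.66 on wt replicates 1 to 4 and 4.43 on wt replicates 5 to 7, and SEU 8.61 and 8.40. The nga-deficient means were 5.30 for JAG, 4.06 for NUB and 8.09 for SEU. Each gene's mean on wt replicates 5 to 7 lay nearer the nga-deficient mean than that on replicates 1 to 4. The differences given without wt replicates 5 to 7 thus use the wt arrays that lay further from nga-deficient. With and without the long-days note the wt means were 4.83 and 4.78 for JAG, 4.60 and 4.53 for NUB, and 8.52 and 8.52 for SEU.

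**Figure D3:**
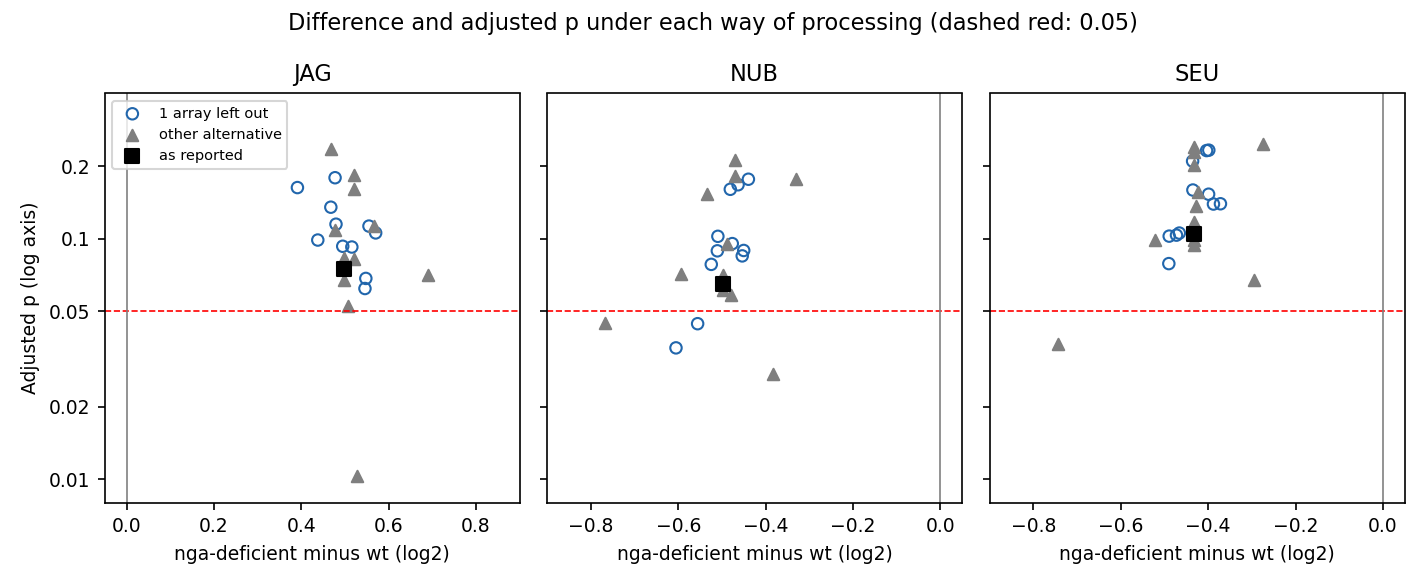
Difference between nga-deficient and wt arrays (horizontal axis, log2) against the limma adjusted p (vertical axis, log scale) of JAG, NUB and SEU as reported (square), with 1 array left out (circles) and under the other alternatives (triangles); the dashed line marks 0.05. No difference changes sign, and most points lie above the line: 1 alternative passes for JAG, 4 for NUB and 1 for SEU.

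Other genes of organ growth and flower patterning were taken from 9 lists with 154 distinct genes. Of these, 22 had a probe set of their own in the annotation and 20 were tested. The annotation leaves 8730 probe sets unnamed here, so the other list genes may be on the arrays without being read. Only INO (AT1G23420), a YABBY factor of the outer integument of the ovule, passed among the 20 in the nga-deficient comparison, which is 1 higher and 0 lower, where 1.33% of all tested probe sets passed as higher and 3.09% as lower. INO measured 5.66 and 5.33 in ngaquad and 5.91 and 5.43 in miR-NGA, against a lowest of 4.48, a median of 4.69 and a highest of 4.98 in wt. All 4 nga-deficient arrays lay above all wt arrays, a 1.81-fold rise (log2 difference 0.86, SE 0.14, limma adjusted p = 0.00595). This call was lost with the wt arrays of the long-days note as the only controls (adjusted p = 0.0825). The median log2 difference of the 20 genes was -0.07, and that of all tested probe sets -0.02.

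The zinc-finger relatives of JAG had 2 of 15 entries with a probe set of their own in the annotation. GIS, a regulator of trichome formation, had a log2 difference of -0.18 (limma adjusted p = 0.640), and RBE, which acts in petal development, was below the filter. Of the partners and relatives of SEU only AGL24, a MADS-domain factor, was tested (0.03, adjusted p = 0.934). LEUNIG itself was not analysed here.

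The organ growth lists gave 0 of 8 tested genes past the adjusted threshold in the nga-deficient comparison, where 4.42% of all tested probe sets passed. With so few genes nothing is read from that count. Among growth promoters UBP15, a ubiquitin protease, had a difference of -0.40 (limma adjusted p = 0.103) and ARL, a promoter of cell expansion, -0.92 (SE 0.54, adjusted p = 0.336), with an SD of 1.24 in wt. CYP78A9 and TCP15 had differences of -0.10 and -0.06. Among restrainers BPE, a bHLH factor that limits petal cell expansion, had a difference of 0.92 (SE 0.32, adjusted p = 0.113). In ngaquad against wt BPE rose 2.70-fold (log2 difference 1.43, SE 0.35, limma adjusted p = 0.0415). That call was lost without ngaquad replicate 1, without any 1 of wt replicates 1 to 6 and in 7 other alternatives (adjusted p up to 0.594). The difference was 0.82 without ngaquad replicate 1 and 0.72 without the 3 arrays with a raised actin difference, and ngaquad did not differ detectably from miR-NGA in BPE (limma adjusted p = 0.666).

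Genes of the carpel and of organ boundaries gave 0 of 5 past the threshold, where 4.42% of all tested probe sets passed, so nothing is read from this count either. SHI and SPT, regulators of the style and carpel margin, had differences of -0.36 and -0.21 (limma adjusted p = 0.226 and 0.275), and ALC, of the fruit valve margin, -0.04. PTL, a trihelix factor that restrains growth between sepals, had -0.44 (adjusted p = 0.136), and ROXY1, a glutaredoxin of petal initiation, -0.08. SIM, an inhibitor of mitosis and the only tested gene of the cell-cycle list, had -0.23 (adjusted p = 0.437). The cell-cycle inhibitors that JAG is known to repress, KRP2 and KRP4, were not analysed here. Of the organ polarity list YAB5, PHV and YAB3 had differences of 0.48, 0.44 and 0.32 (adjusted p of 0.125 or more) beside INO.

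**Figure D4:**
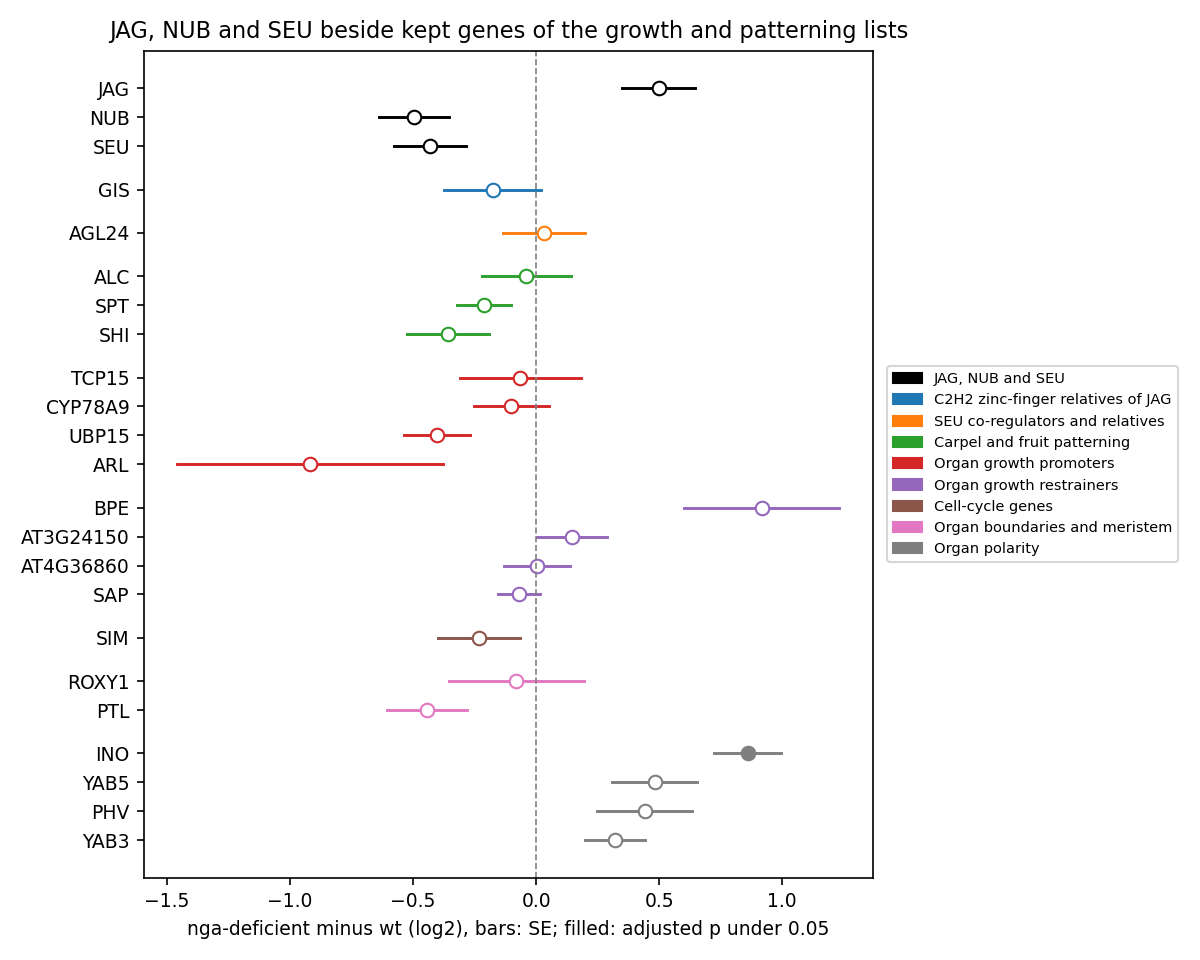
Difference between nga-deficient and wt arrays (horizontal axis, log2; bars are the limma SE) of JAG, NUB and SEU and of 20 tested genes of growth and patterning lists, coloured by list; filled points passed an adjusted p of 0.05. INO, at 0.86, is the only filled point, and JAG, NUB and SEU lie at 0.50, -0.50 and -0.43.

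Markers of the tissues that an inflorescence can hold were read on the same arrays. The leaf and green tissue list had 4 of 7 genes in the annotation. Its summed linear signal was 12647 to 15599 on the nga-deficient arrays and 18662 to 24163 on the wt arrays, without overlap. Its genes HPR, LHCB4.2 and RCA fell (limma adjusted p = 0.000253, 0.00549 and 0.0332). The RCA call was lost in 13 of 23 alternatives and the LHCB4.2 call in 1, with only the wt arrays without the long-days note as controls (adjusted p = 0.0511). Pollen markers (9 of 12 annotated) summed to 795 to 1585 on the nga-deficient arrays and to 697 to 1083 on the wt arrays. The highest sum was that of ngaquad replicate 1. Of these markers only AGL104 passed in ngaquad (log2 difference 1.57, limma adjusted p = 0.0282), where 4.17% of all tested probe sets passed. AGL104 did not pass in the pooled comparison (0.90, adjusted p = 0.151) or in miR-NGA (0.23, adjusted p = 0.796). It was not followed over the alternatives. Tapetum and early anther markers (4 of 9) summed to 3547 to 5317 and to 4027 to 6205 on the same groups. Ovule markers (2 of 5) summed to 151 to 274 and to 128 to 229. They are INO, reported above, and SPL, which is also in the anther list. The ovule sum was 238 to 274 in miR-NGA, above every wt array, and 151 to 190 in ngaquad. SPL had log2 differences from wt of -0.39 in ngaquad and 0.33 in miR-NGA (limma adjusted p = 0.459 and 0.625). The only listed root marker in the annotation, EXPA7, averaged 3.95 in nga-deficient and 4.06 in wt, near the low end of the values. All of these annotated markers passed the filter. The part of these shifts in the results for JAG, NUB and SEU was not tested.

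The genes most like each of the 3 in their pattern over the 11 arrays were found by Pearson r among 1326 other tested genes with a symbol. All points share the same arrays and group differences, so r is given as a measure of likeness only. NUB was nearest to UBP15 (r = 0.967), IQD22, a calmodulin-binding IQ-domain protein (0.952), CCMH, of mitochondrial cytochrome c maturation (0.942), and SEU itself (0.934). SEU was nearest to EPC1, a glycosyltransferase-like protein of cell adhesion (0.952), UBP15 (0.943), NUB (0.934) and the protein kinase gene APK1A (0.916). NUB and SEU were thus among the 4 nearest of each other. An r over 0.9 was reached by 0.980% of the other genes with NUB and by 0.603% with SEU.

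After each group's mean was subtracted, r was 0.865 between NUB and SEU, 0.925 between NUB and UBP15 and 0.949 between SEU and EPC1. The likeness was thus also seen within groups, but UBP15 and EPC1 were picked by an r that already holds this part. How many other genes reach such an r within groups was not counted. UBP15 measured 8.08 and 8.04 in ngaquad and 8.19 and 8.36 in miR-NGA, against 8.27 to 8.89 in wt, with wt replicates 1 and 2 highest as for NUB and SEU. IQD22 and APK1A fell in nga-deficient inflorescences (log2 difference -0.71 and -0.56, limma adjusted p = 0.0232 and 0.0451), calls lost in 9 and 15 of 23 alternatives. JAG had no gene over an r of 0.9. Its nearest were OTP81, a pentatricopeptide protein of chloroplast RNA editing (0.878), PMM, the phosphomannomutase (0.865), PPR596, a mitochondrial pentatricopeptide protein (0.864), and AUR1, an Aurora kinase of mitosis (0.857).

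**Figure D5:**
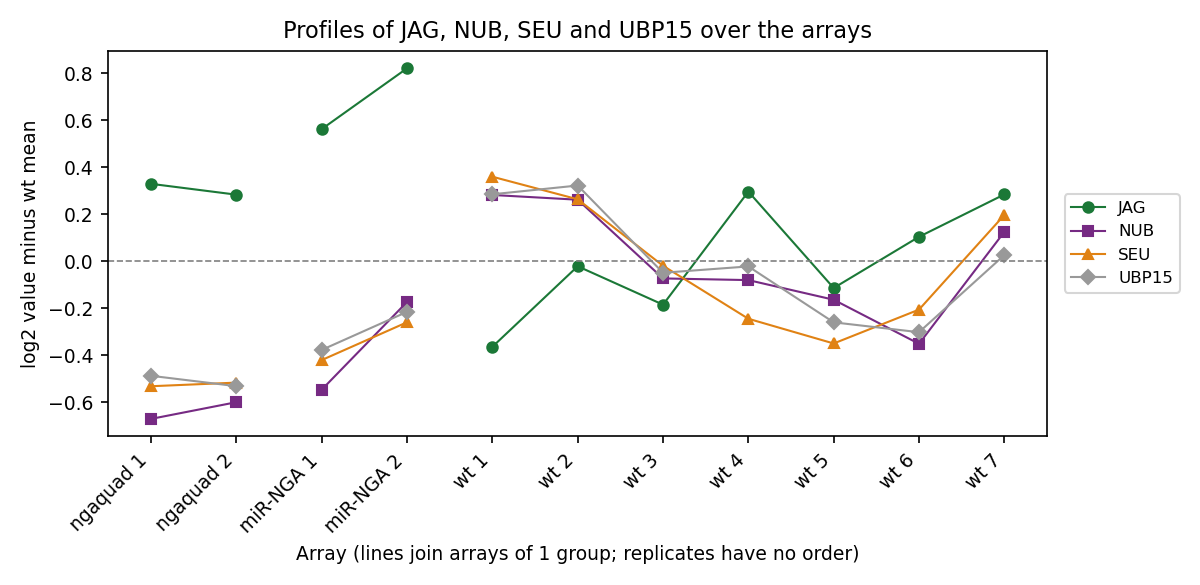
Log2 value minus the wt mean (vertical axis) of JAG, NUB, SEU and UBP15 on each array (horizontal axis); lines join arrays of 1 group. NUB, SEU and UBP15 run close together, with their highest values on wt replicates 1 and 2 and negative values on all 4 nga-deficient arrays, while JAG is above the wt mean on those 4 arrays.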

How the data were processed

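RNA of 11 inflorescence samples was measured on ATH1 arrays. The authors deposited log2 values from GC-RMA in R 2.7.2, per the submitters' processing notes, and with Bioconductor 2.2, which the design text adds. Values between 2.61 and 14.37 fit a log2 scale. No other setting is known here. Of 22746 probe sets without controls, 17910 with a log2 value of at least 4 on at least 4 arrays were tested with limma 3.58.1 in R 4.3.3, with Benjamini-Hochberg adjustment and a two-sided threshold of 0.05. The pooled comparison used 2 groups and the others 1 fit of 3 groups. The script was tested on simulated data. Genes were named through the platform annotation and RefSeq (assembly TAIR10.1): 13513 probe sets had 1 gene, 503 several, and 8730 are unnamed here.

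The members and gene lists were chosen with earlier results of these data known. Named genes were the 3 members, up to 4 passing genes per list, tested list genes that did not pass, and the 4 genes of highest r per member. Marker genes that passed, and genes that passed in 1 genotype, were named after their values were seen. Alternatives covered filter, scaling, weights, eBayes settings, controls, replicate block, permutation and leaving out arrays. The number of arrays limits the precision.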

Additional observations from a re-analysis of the deposited data

How the results depend on the processing

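No alternative turned the direction of JAG, NUB or SEU in any comparison. In the nga-deficient comparison the limma adjusted p ran from 0.0103 to 0.236 for JAG, from 0.0275 to 0.211 for NUB and from 0.0366 to 0.246 for SEU. Array weights brought past the threshold JAG (0.53, adjusted p = 0.0103) and NUB (-0.38, adjusted p = 0.0275), and in miR-NGA JAG (0.67, adjusted p = 0.00810). Quantile normalization did so for NUB in ngaquad (-0.65, adjusted p = 0.0431). With array weights 2977 probe sets passed in nga-deficient and 1650 in miR-NGA, against 792 and 167 without them. The exact permutation test, unadjusted, gave 0.50 for JAG (p = 0.0152), -0.50 for NUB (p = 0.0121) and -0.43 for SEU (p = 0.0182). With 1 array left out the NUB difference ran from -0.61 to -0.44 in nga-deficient, from -0.69 to -0.59 in ngaquad, from -0.55 to -0.17 in miR-NGA and from -0.46 to -0.09 between ngaquad and miR-NGA. NUB was not tested with the filter at 5. The replicate number as a block gave -0.77 for NUB (adjusted p = 0.0444) and -0.74 for SEU (adjusted p = 0.0366) and changed no other call of the 3 genes. It leaves only wt replicates 1 and 2 in comparisons with wt. Deviations of same-numbered arrays correlated between -0.27 and 0.29. In a group of 2 arrays the deviations mirror each other, so these correlations cannot decide whether the numbers pair samples. The numbers were not taken to pair them. The count of probe sets called, 792 for nga-deficient, ran from 229 to 973 with 1 array left out and from 141 to 2977 otherwise. It was 747 for ngaquad (39 to 963 and 124 to 732), 167 for miR-NGA (5 to 212 and 35 to 1650) and 24 between genotypes (13 to 179 and 2 to 45). Of the 20 related genes, 6 passed with array weights (2 higher and 4 lower, where 1216 and 1761 of 17910 probe sets passed), 3 without the 3 arrays with a raised actin difference (2 higher and 1 lower, against 257 and 610), 2 with the replicate block (INO and UBP15, against 1096 higher and 836 lower), and 1 without wt replicates 5 to 7 (against 143 and 373), while INO was lost and no other gained with the long-days wt arrays as controls (against 45 and 184), counts added after seeing the data. Median centring moved lower calls to 58.0% of nga-deficient calls, against 69.8%. The cause of these changes was not tested.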

Other observations

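The likeness of NUB, SEU and UBP15 was looked at in subsets of arrays chosen after seeing the data. Between NUB and SEU, r was 0.891 over the 7 wt arrays, 0.851 over the 8 arrays without a high actin difference and 0.960 over the 8 arrays other than wt replicates 5 to 7. Between NUB and UBP15 it was 0.957, 0.946 and 0.984 in the same subsets. NUB lies near the low end of the signal range and SEU and UBP15 in its upper part, so their likeness was not between probe sets of equal brightness. JAG, the relative of NUB, had an r of -0.295 with NUB over the wt arrays and of -0.509 over all 11. The r of JAG with NUB was -0.232 without the high actin arrays and -0.602 without wt replicates 5 to 7. After each group's mean was subtracted it was -0.137, so the value over all 11 arrays also holds the opposite group differences. What the arrays of high NUB, SEU and UBP15 signal share was not tested.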
